A study of Mus musculus with 15 samples.

Results

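Cardiomyocyte deletion of the Atf4 coding exons was compared with its own control in ventricles of E11.5 mouse embryos, using the 8 libraries titled for the CDS line out of 15 in the series. The tested libraries were the 4 titled as the cardiomyocyte-specific ATF4 CDS KO, and the other 4 were titled ATF4 CDS Control. In the CDS allele, loxP sites flank exons 2 and 3 of Atf4 and the polyadenylation signal (PAS) is kept. Knockout embryos carry this allele on both copies together with Xmlc2-Cre, which acts in cardiomyocytes, and leaves the endocardium, epicardium, mesenchyme and blood of the ventricle untargeted. The labels call the other group Control without saying which alleles those embryos carry, and give C57BL/6 as the strain of all of them. The other 7 libraries, 4 from knockouts and 3 from controls of a line with loxP sites around the PAS, were used only for values set beside those of the CDS line. The protocols disagree on the source and preparation of the RNA: one names dissected ventricle and poly(A) selection, the other cultured cortical neurons and removal of ribosomal RNA. Heart muscle genes were abundant in all 8 libraries, with Actc1, the cardiac actin, between 8930 and 11300 CPM, and neuronal Tubb3 averaged 6.59 CPM.

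ATF4 is a transcription factor whose protein is made when the integrated stress response slows general translation. It binds amino acid response elements, often as a dimer with a C/EBP protein, and raises genes that import, make and activate amino acids. Genes of serine, proline and asparagine synthesis and the aminoacyl-tRNA synthetases, which load amino acids onto their tRNAs, are its best known targets. In the embryonic ventricle the cardiomyocytes form an outer compact layer and inner trabeculae, and both layers are growing at this stage.

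Total gene counts ran from 31410559 to 43060454 in the knockouts and from 30376847 to 46472141 in the controls. Levels are given as CPM, counts per 1000000 after scaling each library, and a gene was called when its Benjamini-Hochberg adjusted p over all genes was under 0.05. CDS knockout 3 stood apart from the other libraries, as described near the end, and many list medians are also given without it. Y-linked Ddx3y was present in all 8 libraries, at 83.5 to 92.7 CPM. Nothing in the labels says whether embryos of a group shared a litter, so p-values measure the spread between these libraries.

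The deletion changed few genes: 12 of 19345 tested were called (0.062%), 2 higher (0.0103%) and 10 lower (0.0517%). Atf4 itself had 39.6, 48.0, 45.3 and 44.8 CPM in the knockouts, against 113, 112, 116 and 115 CPM in the controls. The libraries were far apart, with a log2 change of -1.36 ± 0.05 (SE, n = 4 each, adjusted p = 2.89e-11 by the quasi-likelihood test of edgeR). The counts cover the whole gene, exons outside the deletion and cells that were not targeted included. Of 13 genes tested within 250 kb of Atf4, itself included, 3 were called. Cacna1i, the gene of a T-type calcium channel, had 268, 307, 240 and 193 counts in the knockouts, against 0, 1, 1 and 3 counts in the controls. Rps19bp1, whose product binds a ribosomal protein, fell to 9.03 ± 0.789 CPM in the knockouts, against 13.9 ± 0.691 CPM in the controls (SD, n = 4 each; adjusted p = 0.000717).

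The other called genes were 5 cytosolic synthetases, 3 enzymes of amino acid synthesis and 1810010H24Rik. The last is a protein-coding gene on chromosome 11 (106916507 to 106921269, plus strand, GRCm39). It had 2.97, 3.50, 2.98 and 2.92 CPM in the knockouts, against 1.19, 1.32, 1.53 and 1.10 CPM in the controls. Every knockout library was above every control library, and 1810010H24Rik rose by 1.27 ± 0.15 in log2 terms (SE, adjusted p = 0.000523).

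**Figure D1:**
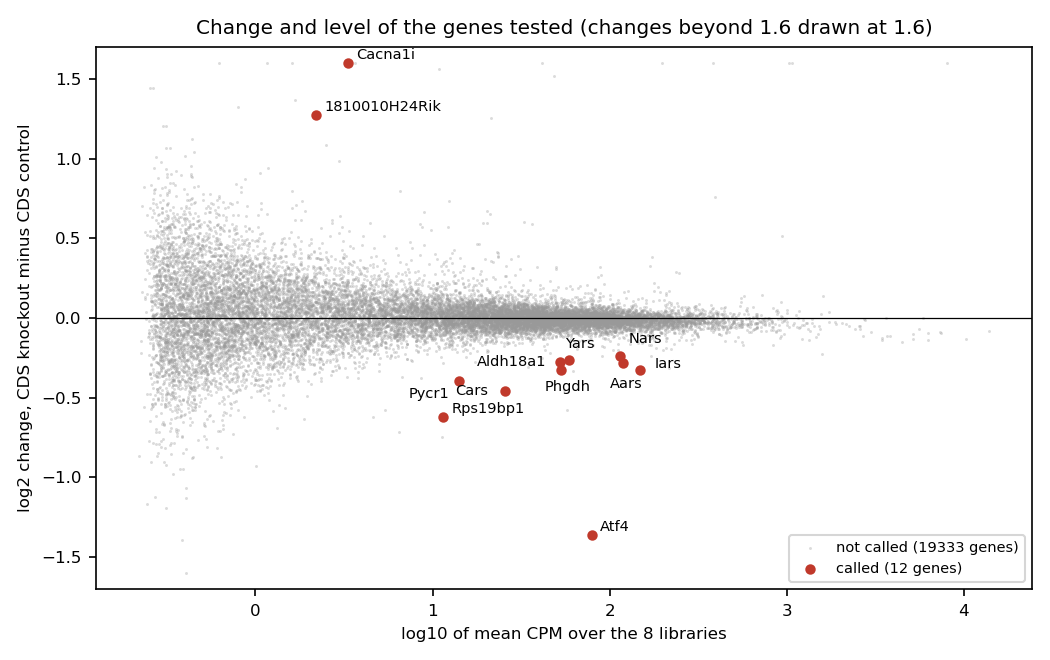
Log2 change of each of the 19345 genes tested (vertical axis, CDS knockout minus CDS control) against the log10 of its mean CPM over the 8 libraries (horizontal axis). The 12 called genes are drawn in red and named, and the cloud of the other genes narrows towards high levels, where it lies slightly below 0.

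The shifts in the remaining genes were small. Over all genes tested the median size of the log2 change was 0.058, and 535 genes (2.77%) lay beyond 0.5 in either direction. Among the 9926 genes with a mean of at least 10 CPM the median size was 0.033, the 95th percentile was 0.125 and 23 genes lay beyond 0.5. An unadjusted p under 0.05 was reached by 819 genes (4.23%), 417 of them higher (2.16%) and 402 lower (2.08%). The groups did not overlap for 283 genes that were higher in the knockouts (1.46%) and for 260 that were lower (1.34%). These shares are the background for the gene lists below, in which a share near them is no result.

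The direction of the small shifts ran with the level of the gene. With protein-coding genes split into 5 equal groups by mean CPM, the share with a negative log2 change was 41.6% in the lowest group, then 44.2%, 50.5% and 55.8%, and 65.2% in the highest, which began at 82.3 CPM. In the highest group 121 genes were lower and 19 higher at an unadjusted p under 0.05, and in the lowest group 41 were lower and 91 higher. The median log2 change was -0.015 in the highest group and 0.044 in the lowest. By library, the median deviation of the highest group of genes from its mean over the 8 libraries was -0.003, -0.007, -0.026 and 0.009 on the log2 scale in knockouts 1 to 4, against 0.008, 0.007, 0.005 and 0.011 in controls 1 to 4. Knockout 4 lay within the controls, so knockouts and controls overlapped. Without knockout 3 the share in the highest group was 58.6%, without knockouts 3 and 4 it was 62.6%, and with 1 surrogate variable estimated from the counts as a covariate it was 56.9%. In the PAS line, the same genes had 49.7% negative changes. All 4 of the shares given for the CDS line lay above the 50.2% of all genes tested.

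**Figure D2:**
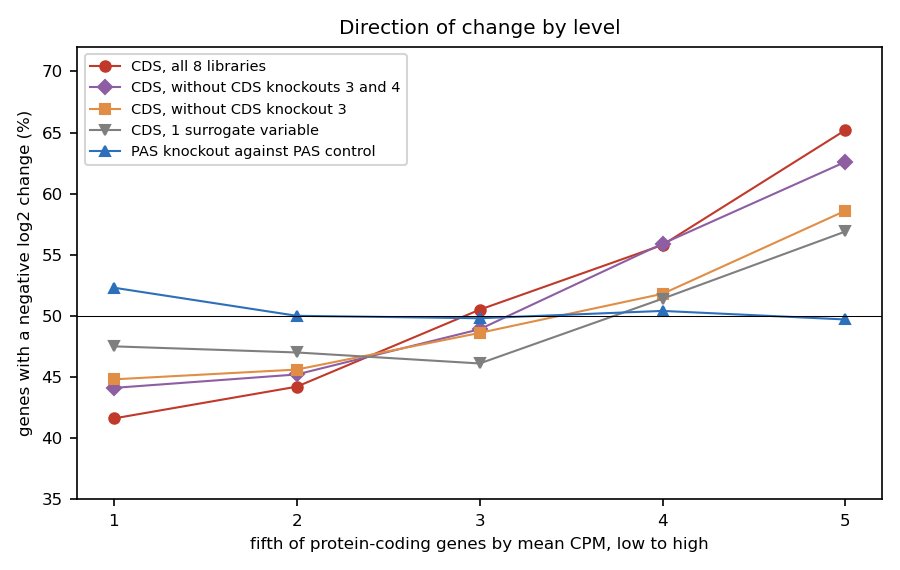
Share of protein-coding genes with a negative log2 change (vertical axis, percent) in 5 groups by mean CPM from low to high (horizontal axis), for the CDS line with all 8 libraries, without knockouts 3 and 4, without knockout 3 and with 1 surrogate variable, and for the PAS line. The CDS line climbs to 65.2% in the highest group with all 8 libraries, while the PAS line stays near 50%.

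Of the enzymes of amino acid synthesis 3 fell. Before their values, the promoter stretches of these genes and of 4 synthetases are shown, because each is either called lower or a known ATF4 target and they differ in whether they hold the amino acid response element core. They are RefSeq promoters on GRCm38.p6, read 5' to 3' along the gene, and capitals mark TGATGNAA on either strand, so that TTGCATCA and TTTCATCA are its reverse complements. The stretches are Pycr1 at chr11:120643749-120643868 (minus strand), Asns at chr6:7693210-7693329 (minus), Gars at chr6:55037881-55038000 (plus), Aars at chr8:111033718-111033861 (plus), Iars at chr13:49682030-49682149 (plus) and Yars at chr4:129189803-129189922 (plus). Phgdh at chr3:98339970-98340089 (minus) and Aldh18a1 at chr19:40588464-40588583 (minus) have no match in the 300-base window from which the stretch comes. The stretches end at the annotated start, or 20 bases after it for Aars, Iars and Yars, whose matches reach past it.
Pycr1: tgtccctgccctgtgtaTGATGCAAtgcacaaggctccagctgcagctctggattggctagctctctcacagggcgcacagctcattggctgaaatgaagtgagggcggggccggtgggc
Asns: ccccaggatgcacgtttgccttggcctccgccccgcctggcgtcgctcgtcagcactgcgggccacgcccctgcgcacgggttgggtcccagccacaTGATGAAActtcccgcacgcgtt
Gars: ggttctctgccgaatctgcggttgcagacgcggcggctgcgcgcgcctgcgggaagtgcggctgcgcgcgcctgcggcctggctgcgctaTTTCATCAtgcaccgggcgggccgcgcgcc
Aars: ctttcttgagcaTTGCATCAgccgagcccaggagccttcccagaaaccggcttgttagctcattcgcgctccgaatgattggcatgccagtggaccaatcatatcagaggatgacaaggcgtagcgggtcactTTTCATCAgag
Iars: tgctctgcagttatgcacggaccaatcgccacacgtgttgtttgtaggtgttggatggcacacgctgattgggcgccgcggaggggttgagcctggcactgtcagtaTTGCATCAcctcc
Yars: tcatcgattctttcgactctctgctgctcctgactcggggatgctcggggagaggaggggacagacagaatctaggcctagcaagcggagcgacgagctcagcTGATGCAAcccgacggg
Phgdh: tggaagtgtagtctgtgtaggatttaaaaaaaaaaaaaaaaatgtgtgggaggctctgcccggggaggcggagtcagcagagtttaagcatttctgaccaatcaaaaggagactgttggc
Aldh18a1: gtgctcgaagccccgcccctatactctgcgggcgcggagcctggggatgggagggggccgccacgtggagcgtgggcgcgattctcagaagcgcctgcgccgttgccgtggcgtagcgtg

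Of the 9 called genes that were lower other than Atf4, 7 had a promoter in the RefSeq table, matched by symbol, and 4 of these (57.1%) held TGATGNAA: Pycr1, Aars, Iars and Yars. The share among all 27025 genes of the table, in windows of the same length, was 4.51%. The longer form TGATGCAAT, with which TGATGNAA overlaps, was present in 3 of the 7 (Pycr1, Aars and Iars) and in 0.222% of all genes. Among the 21 enzymes of amino acid and one-carbon synthesis the short form was found in 3 of 17 promoters (17.6%), those of Pycr1, Asns and Got1. A match describes letters in a window and does not show binding.

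Pycr1, which catalyses the last step of proline synthesis, had 12.5, 11.9, 12.4 and 11.9 CPM in the knockouts, against 17.7, 15.2, 15.8 and 15.2 CPM in the controls. The groups did not overlap, and it fell by 0.39 ± 0.07 (log2, SE; adjusted p = 0.0243). Its call is not firm: the adjusted p was above 0.05 in 11 of 19 other settings, among them without knockout 1, 2 or 4 and without control 1, 3 or 4. Aldh18a1, which makes the first intermediates of proline and ornithine, had 49.4, 46.9, 47.9 and 45.3 CPM in the knockouts, against 58.3, 54.1, 56.6 and 60.6 CPM in the controls. Every knockout lay below every control, and Aldh18a1 fell by 0.28 ± 0.04 (log2, SE; adjusted p = 0.0124). That adjusted p was 0.0973 without knockout 2, 0.078 without knockout 4, 0.0753 without control 1 and 0.079 without control 4. Phgdh, the first enzyme of serine synthesis, had 44.5, 45.1, 49.0 and 51.2 CPM in the knockouts, against 58.8, 62.5, 55.9 and 60.4 CPM in the controls. All knockouts were below all controls, and Phgdh fell by 0.33 ± 0.05 (log2, SE; adjusted p = 0.0089), with adjusted p = 0.0946 without knockout 2 and 0.0575 without control 4.

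Beside these 3 enzymes, which use or make serine and proline, Mthfd2 and Aldh1l2 of mitochondrial one-carbon metabolism lay lower without passing the test, and both were picked after their values were seen. The other mitochondrial enzymes of that route, Shmt2, Mthfd1l and Mthfd2l, had log2 changes of -0.09, -0.05 and -0.03 with unadjusted p of 0.0584, 0.457 and 0.593 in the list of amino acid and one-carbon synthesis. Mthfd2, which oxidises one-carbon units in mitochondria, had 30.4, 33.3, 27.5 and 32.6 CPM in the knockouts, against 41.1, 37.9, 37 and 37.3 CPM in the controls, with no overlap (log2 change -0.31 ± 0.06, SE; adjusted p = 0.0754). Aldh1l2, which turns 10-formyl-tetrahydrofolate into carbon dioxide and tetrahydrofolate in mitochondria, had 51.6, 48.5, 40.4 and 45.8 CPM in the knockouts, against 65.6, 69.5, 58.2 and 61.5 CPM in the controls. It too did not overlap, with a log2 change of -0.45 ± 0.08 (SE; adjusted p = 0.0963). Aldh1l2 was called in 10 of 19 other settings, among them DESeq2 (adjusted p = 1.98e-06), limma-voom (0.0406) and the fit without knockout 3 (0.0178), and its adjusted p reached 0.463 in another. Asns, asparagine synthetase, averaged 18.9 ± 1.17 CPM in the knockouts and 21.8 ± 2.02 CPM in the controls (SD, n = 4 each), and the groups overlapped. Bcat1, the cytosolic branched-chain aminotransferase, averaged 12.0 ± 0.889 CPM in the knockouts and 15.7 ± 2.36 CPM in the controls, again with overlap. Over the whole list of 21 enzymes 16 log2 changes were negative (76.2%), 6 were lower and none higher at an unadjusted p under 0.05, and the median was -0.062. The background is 50.2% negative and a median of -0.0004 over all genes tested. The median deviation of the list was -0.058, -0.034, -0.119 and -0.005 (log2) in knockouts 1 to 4, against 0.098, 0.055, 0.004 and 0.068 in controls 1 to 4, so the groups did not overlap. Such medians were apart in 4 of the 50 lists. Without knockout 3 the median change of the amino acid and one-carbon list was -0.041.

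**Figure D3:**
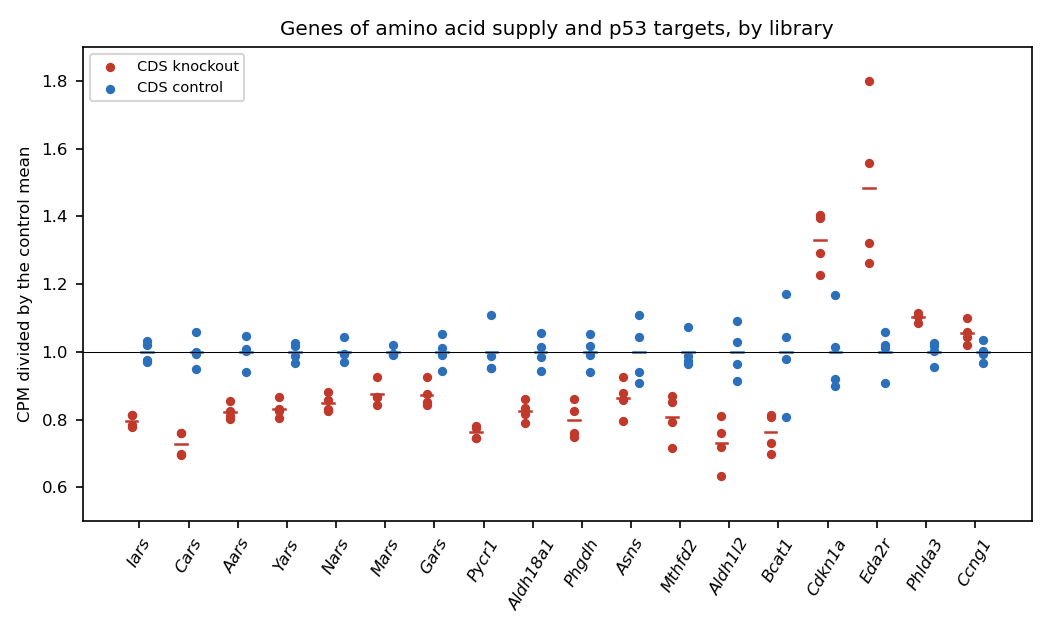
CPM of each library divided by the mean of the 4 controls (vertical axis) for 14 genes of amino acid supply and 4 p53 targets (horizontal axis), with knockouts in red left of controls in blue and bars at group means. The groups do not overlap for any gene from Iars to Phgdh, while Asns, Bcat1 and Ccng1 overlap.

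The cytosolic tRNA synthetases held 5 called genes of 20, namely Iars, Cars, Aars, Yars and Nars, and 18 of the 20 log2 changes were negative (90.0%), with a median of -0.074. Nars lost its call without knockout 1 (adjusted p = 0.0518) and without knockout 2 (0.0954). Cars, the cysteine enzyme, had the lowest ratio of them, with 20.7, 20.6, 22.5 and 22.5 CPM in the knockouts, against 29.6, 28.1, 29.4 and 31.3 CPM in the controls (log2 change -0.46 ± 0.05, SE; adjusted p = 0.000512). Mars, the methionine enzyme, and Gars, the glycine enzyme, were not called although their groups did not overlap, and are named after their values were seen. Mars averaged 61.4 ± 2.43 CPM in the knockouts and 70.2 ± 0.97 CPM in the controls, and Gars averaged 207 ± 9.14 CPM in the knockouts and 236 ± 10.7 CPM in the controls (SD, n = 4 each). The adjusted p was 0.0754 for Mars and 0.194 for Gars. The 17 mitochondrial synthetases had a median log2 change of 0.013, with 6 negative, which was 0.032 without knockout 3 and turned negative in 2 of 19 other settings.

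Amino acid transporters and the general outputs of the stress response held no called gene. Of 14 transporter genes 8 were negative (57.1%), and the median log2 change was -0.056. Slc3a2, the heavy chain of several amino acid exchangers, had 51.7, 49.5, 50.2 and 51.5 CPM in the knockouts, against 54.5, 53.5, 53.8 and 55.0 CPM in the controls. Its groups did not overlap, and the log2 change of -0.10 ± 0.04 (SE) did not pass the test. The 18 stress response genes had 12 negative changes (66.7%) and a median of -0.043, which was -0.016 without knockout 3 and 0.002 with 1 surrogate variable. Among them Eif2s2, the beta subunit of the initiation factor eIF2, had 141, 144, 143 and 149 CPM in the knockouts, against 160, 165, 157 and 161 CPM in the controls. The groups were apart, and the log2 change was -0.16 ± 0.03 (SE; adjusted p = 0.173). Atf5, a transcription factor related to Atf4, averaged 21.8 ± 1.55 CPM in the knockouts and 23.7 ± 1.83 CPM in the controls.

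Targets of p53 lay slightly higher. The protein p53 responds to DNA damage and other stress and raises genes that stop the cell cycle, repair DNA or start cell death. Of the 34 targets tested 8 log2 changes were negative and 26 positive, and the median was 0.038. At an unadjusted p under 0.05, 6 were higher and 1, Ak1, was lower, beside a background of 2.16% higher and 2.08% lower. None passed the test across all genes in the fit of all 8 libraries. The median deviation of the list was 0.052, 0.039, 0.009 and 0.031 (log2) in knockouts 1 to 4, against -0.028, -0.004, -0.021 and -0.031 in controls 1 to 4. All 4 knockouts lay above all 4 controls, and such medians were apart, in either direction, in 4 of the 50 lists. The median change of the p53 targets lay between 0.031 and 0.068 in the 19 other settings.

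Cdkn1a, the gene of the p21 inhibitor of the cell cycle, had 27.6, 25.6, 27.8 and 24.3 CPM in the knockouts, against 20.1, 18.2, 23.1 and 17.8 CPM in the controls. The lowest knockout was above the highest control, and its log2 change of 0.41 ± 0.08 (SE) had an adjusted p of 0.0754. Its adjusted p ranged from 6.54e-09 to 0.67 over the other settings and was 0.00102 by DESeq2 and 0.00229 without control 3. Eda2r, a receptor of the tumour necrosis factor family on the X chromosome, had 8.83, 10.9, 12.6 and 9.25 CPM in the knockouts, against 7.15, 6.36, 7.42 and 7.08 CPM in the controls. The groups did not overlap (log2 change 0.57 ± 0.11, SE; adjusted p = 0.0754, 0.00118 by DESeq2, 0.0223 without knockout 1 and up to 0.67 in other settings). Cdkn1a and Eda2r were among the 10 rises of smallest p picked from genes without overlap, so their separation was fixed by that choice. Of the 34 targets 4 were higher without overlap, beside 1.46% of all genes tested. Phlda3, an inhibitor of Akt signalling, had 32.3, 32.6, 32.3 and 31.7 CPM in the knockouts, against 29.3, 29.7, 30.0 and 27.9 CPM in the controls, also apart, with an adjusted p of 0.918. Tnfrsf10b, Zmat3 and Ccng1 had log2 changes of 0.16, 0.13 and 0.08 with overlapping groups, and are given after their values were seen. In the PAS line the 34 targets had a median of 0.007 with 16 negative, and Cdkn1a and Eda2r had log2 changes of 0.31 and 0.34. The difference between the lines had an unadjusted p of 0.406 for Cdkn1a and 0.196 for Eda2r.

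Genes of the hypoxia response were higher in 11 of 16 cases, with a median log2 change of 0.039. P4ha2, a collagen prolyl hydroxylase, had 60.1, 61.6, 63.9 and 56.2 CPM in the knockouts, against 55.1, 50.1, 54.1 and 53 CPM in the controls. Every knockout was above every control, and the log2 change was 0.19 ± 0.04 (SE; adjusted p = 0.377). P4ha2 was among the 10 rises of smallest p picked from genes without overlap, so its separation was fixed by that choice. Of the 16 genes 2 were higher without overlap, beside 1.46% of all genes tested. Vegfa, the endothelial growth factor, averaged 229 ± 10.2 CPM in the knockouts and 216 ± 5.27 CPM in the controls, with overlap. Ndrg1, a stress-induced gene of differentiation, averaged 5.89 ± 0.461 CPM in the knockouts and 5.09 ± 0.646 CPM in the controls. By library the list lay at 0.048, 0.050, 0.037 and -0.044 (log2 deviation) in knockouts 1 to 4, against -0.006, -0.029, -0.018 and -0.035 in controls 1 to 4, so knockout 4 was lower than every other library. In the PAS line 13 of the 16 were negative, with a median of -0.065.

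**Figure D4:**
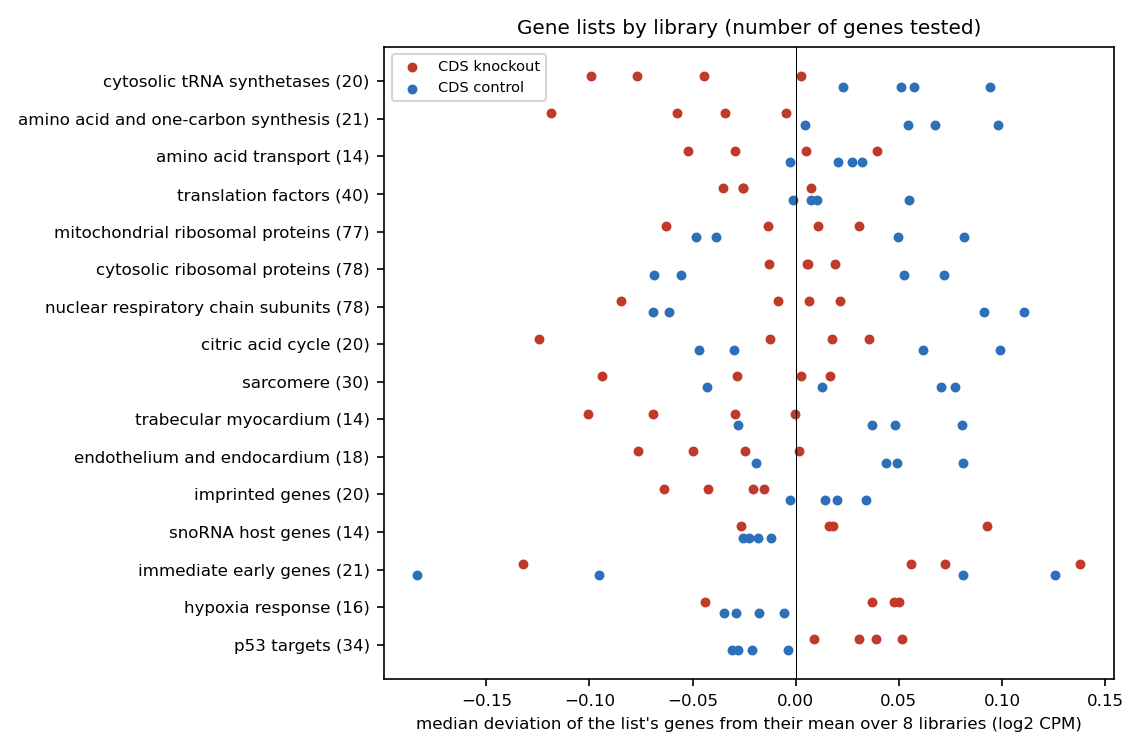
Median deviation of 16 gene lists in each library (horizontal axis, log2 CPM minus each gene's mean over the 8 libraries), with knockouts in red above controls in blue and the number of genes tested in parentheses. Knockouts and controls are apart for the synthetases, amino acid synthesis, imprinted genes and p53 targets, the only such lists of 50. The controls of the ribosomal, respiratory and citric acid cycle lists fall into 2 pairs.

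Lists of abundant genes for translation and energy supply had mostly negative changes. Their members lay mainly in the most abundant group of coding genes, of which 65.2% were negative, with 32 of 40 translation factors, 59 of 78 respiratory subunits and 18 of 20 citric acid cycle genes in it. The mitochondrial ribosomal proteins had a median level of 33.8 CPM and 2 of 77 members in that group, and of the coding genes at that level 50.5% were negative. Translation factors were negative in 34 of 40 cases (85.0%), with a median log2 change of -0.030. Eif3c, a core subunit of the initiation factor eIF3, had 248, 246, 245 and 247 CPM in the knockouts, against 265, 265, 260 and 266 CPM in the controls. Knockouts and controls were apart, yet the log2 change of -0.10 ± 0.03 (SE) did not pass the test. Eif2b4, a subunit of the exchange factor for eIF2, averaged 34.1 ± 1.13 CPM in the knockouts and 37.6 ± 2.84 CPM in the controls, and Eef1a1, the most abundant elongation factor gene, averaged 5440 ± 125 CPM in the knockouts and 5690 ± 285 CPM in the controls. Both overlapped. The median of the translation factors stayed negative in all 19 other settings, from -0.042 to -0.010, and was -0.019 without knockout 3.

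For mitochondria, 62 of 77 ribosomal protein genes of the organelle (80.5%), 63 of 78 nuclear respiratory chain subunits (80.8%) and 18 of 20 citric acid cycle genes (90.0%) had negative changes. Their median log2 changes were -0.025, -0.038 and -0.043. All 3 medians turned positive with 1 surrogate variable, to 0.027, 0.044 and 0.032, and they were -0.008, -0.010 and -0.011 without knockout 3. The respiratory subunits lay at 0.006, -0.009, -0.085 and 0.022 (log2 deviation) in knockouts 1 to 4, against 0.091, 0.111, -0.069 and -0.062 in controls 1 to 4. Controls 1 and 2 were thus above all knockouts while controls 3 and 4 were below all but knockout 3. Cox5b, a subunit of cytochrome c oxidase, had 264, 260, 251 and 260 CPM in the knockouts, against 291, 305, 274 and 269 CPM in the controls, with no overlap and a log2 change of -0.14 ± 0.04 (SE) that did not pass the test. It was the only 1 of the 78 respiratory subunits that was lower without overlap, beside 1.34% of all genes tested, so its separation is no result. The proteins encoded in the mitochondrial genome had 10 negative changes of 11, with a median of -0.11 that was negative in all 18 other settings that keep these genes. In the PAS line the median was 0.057. mt-Nd6, a complex I subunit, had 1750, 1330, 1470 and 1310 CPM in the knockouts, against 1670, 1830, 1660 and 1710 CPM in the controls, where knockout 1 lay among the controls. Its log2 change was -0.23 ± 0.09 (SE; adjusted p = 0.999), and -0.33 without knockout 1 (adjusted p = 0.0244), the only setting in which it passed.

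Cytosolic ribosomal proteins were balanced, with 38 of 78 negative (48.7%) and a median log2 change of 0.003. The extremes went opposite ways. Rpl23a had 172, 163, 173 and 168 CPM in the knockouts, against 190, 190, 178 and 186 CPM in the controls, without overlap. It was the only 1 of the 78 that was lower without overlap, beside 1.34% of all genes tested, so its separation is no result. Rpl39 had 186, 192, 190 and 182 CPM in the knockouts, against 183, 168, 159 and 157 CPM in the controls, where only control 1 reached the range of the knockouts. Neither passed the test (adjusted p = 0.545 and 0.666), and both genes have near-identical copies elsewhere that can share reads. Glycolysis had 13 of 19 negative changes and a median of -0.038, which was -0.003 without knockout 3. Gapdh averaged 3290 ± 231 CPM in the knockouts and 3590 ± 213 CPM in the controls (SD, n = 4 each), with overlap.

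Genes of heart muscle, which are among the most abundant, were mostly on the negative side as well. Of 30 sarcomere genes 25 were negative (83.3%), 5 lower and 1 higher at an unadjusted p under 0.05, and the median log2 change was -0.050. It was -0.025 without knockout 3 and 0.001 with 1 surrogate variable. Myl2, the ventricular myosin light chain, had 4510, 4240, 3820 and 4470 CPM in the knockouts, against 4910, 4950, 4440 and 4580 CPM in the controls, and Myh7, the slow myosin heavy chain, averaged 5940 ± 511 CPM in the knockouts and 6550 ± 399 CPM in the controls. Knockouts 1 and 4 overlapped the controls for Myl2. Among 19 calcium handling genes the median was -0.031. Hrc, a calcium-binding protein of the sarcoplasmic reticulum, averaged 194 ± 15 CPM in the knockouts and 221 ± 14.8 CPM in the controls. Trdn, triadin of the calcium release complex, averaged 115 ± 5.23 CPM in the knockouts and 126 ± 6.52 CPM in the controls, without overlap.

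Trabecular markers had a median log2 change of -0.073 with 10 of 14 negative, and the median was negative in all 19 other settings. Of the 14, 10 lay in the most abundant group of coding genes, of which 65.2% were negative. Bmp10, a growth factor made by trabecular cardiomyocytes, had 271, 279, 269 and 282 CPM in the knockouts, against 295, 343, 285 and 311 CPM in the controls. Every knockout lay below every control (log2 change -0.16 ± 0.05, SE; adjusted p = 0.938). Cited1, a transcriptional cofactor of trabeculae, averaged 423 ± 19.6 CPM in the knockouts and 468 ± 49.2 CPM in the controls, with overlap, and the list's knockout medians overlapped its control medians through control 3. The 12 compact layer markers had a median of 0.046 with 5 negative, but the members with the smallest p lay lower: Ccnd2, a D-type cyclin, averaged 506 ± 28.1 CPM in the knockouts and 551 ± 25.6 CPM in the controls. Vegfb, a vascular growth factor, averaged 90.1 ± 4.00 CPM in the knockouts and 96.7 ± 4.49 CPM in the controls. The growth signals of the wall were split evenly, with 11 of 22 negative. In that list Bmp4 averaged 11.8 ± 0.531 CPM in the knockouts and 10.5 ± 0.699 CPM in the controls. Cardiac transcription factors had 12 of 22 negative and a median of -0.016, which was -0.006 without knockout 3, among them Mef2c, with 170 ± 2.15 CPM in the knockouts and 178 ± 4.42 CPM in the controls, and Foxp1, with 93.9 ± 2.68 CPM in the knockouts and 100 ± 2.30 CPM in the controls.

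Imprinted genes are expressed from 1 parental copy, and many of them set growth of the embryo. They were among the 4 of 50 lists whose library medians were apart between the groups, and 14 of the 20 lay in the most abundant group of coding genes. Their median deviation was -0.042, -0.021, -0.064 and -0.015 (log2) in knockouts 1 to 4, against 0.034, 0.020, -0.003 and 0.014 in controls 1 to 4, with 13 of 20 changes negative (65.0%) and a median change of -0.035. That share is close to the 65.2% of abundant genes, and the median was negative in all 19 other settings, -0.047 without knockout 3. Igf2, the fetal growth factor, had 541, 554, 508 and 537 CPM in the knockouts, against 607, 556, 643 and 603 CPM in the controls. The highest knockout was just under the lowest control, and the log2 change was -0.17 ± 0.04 (SE; adjusted p = 0.666). Plagl1, a zinc finger regulator of imprinted genes, had 1430, 1420, 1340 and 1410 CPM in the knockouts, against 1540, 1590, 1470 and 1470 CPM in the controls, also apart. Mest, Cdkn1c and Igf2r, the last named after its values were seen, had log2 changes of -0.14, -0.17 and -0.10 with overlapping groups. H19, the noncoding RNA beside Igf2, averaged 7080 ± 476 CPM in the knockouts and 7530 ± 334 CPM in the controls.

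Markers of cells that Cre does not target also had small shifts. In bulk tissue, fewer cells of a type and less RNA per cell cannot be told apart. Endothelial and endocardial markers had 13 of 18 negative changes (72.2%), a median log2 change of -0.041, and 6 lower with none higher at an unadjusted p under 0.05. Of the 18, 9 lay in the most abundant group of coding genes, of which 65.2% were negative. In the less abundant groups the share was 41.6% to 55.8%. At an unadjusted p under 0.05, 121 of the 2831 genes of the most abundant group were lower and 19 higher. Over all genes tested 2.08% were lower and 2.16% higher at that threshold. Cdh5, the endothelial cadherin, had 270, 283, 257 and 287 CPM in the knockouts, against 303, 300, 306 and 299 CPM in the controls. No knockout reached the controls (log2 change -0.14 ± 0.04, SE; adjusted p = 0.851). Pecam1, an endothelial adhesion molecule named after its values were seen, averaged 168 ± 1.83 CPM in the knockouts and 180 ± 4.81 CPM in the controls, also apart. Kdr, the main receptor for Vegfa, averaged 198 ± 6.74 CPM in the knockouts and 218 ± 11 CPM in the controls, and Npr3, an endocardial receptor for natriuretic peptides, averaged 303 ± 11.7 CPM in the knockouts and 328 ± 13.1 CPM in the controls. Both overlapped. The list lay at -0.050, 0.002, -0.077 and -0.024 (log2 deviation) in knockouts 1 to 4, against 0.044, 0.081, 0.049 and -0.019 in controls 1 to 4. In the PAS line the list's median was 0.022 with 7 of 18 negative.

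Markers of cushion and mesenchyme went the other way, with 14 of 16 positive and a median log2 change of 0.21, which was 0.131 without knockout 3 and -0.023 with 1 surrogate variable. The groups overlapped: the list lay at -0.019, 0.172, 0.239 and -0.006 (log2 deviation) in knockouts 1 to 4, against -0.368, -0.052, 0.103 and 0.014 in controls 1 to 4. Snai2, a regulator of the transition from endothelium to mesenchyme, averaged 11.3 ± 1.31 CPM in the knockouts and 9.30 ± 1.26 CPM in the controls. Msx1, a homeobox gene of the cushions, had 5.65, 9.03, 15.4 and 10.9 CPM in the knockouts, against 3.94, 5.35, 8.44 and 8.89 CPM in the controls. The groups overlapped through knockout 1, which lay within the range of the controls. Epicardial markers had 9 of 12 negative changes and a median of -0.034. How far the makeup of the dissected tissue moved with the other lists was not tested.

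Other genes outside the amino acid pathway were higher in every knockout library than in every control library without passing the test. Those given here, apart from Xlr3a, come from the 10 rises of smallest p among genes without overlap. That their groups were apart was thus fixed by the choice. Over all genes tested, 283 (1.46%) were higher without overlap. Dleu2, a noncoding host transcript of 2 microRNAs on chromosome 14 (61805667 to 61921335, minus strand, GRCm39), had 23.4, 23.7, 23.7 and 24.3 CPM in the knockouts, against 19.1, 20, 20.8 and 19.8 CPM in the controls. The spread within groups was small beside the gap (log2 change 0.26 ± 0.05, SE; adjusted p = 0.0754). Myh7b, an ancient myosin heavy chain gene, had 208, 208, 201 and 199 CPM in the knockouts, against 180, 188, 181 and 177 CPM in the controls (log2 change 0.17 ± 0.03, SE; adjusted p = 0.141). Xlr3b, an X-linked member of a multicopy family, had 4.24, 3.40, 3.45 and 2.45 CPM in the knockouts, against 0.993, 2.25, 1.33 and 1.81 CPM in the controls (log2 change 1.08 ± 0.22, SE; adjusted p = 0.194). Its near copy Xlr3a, named after its values were seen, averaged 1.12 ± 0.403 CPM in the knockouts and 0.669 ± 0.232 CPM in the controls with overlap, and reads of such copies can be split between them. By DESeq2, Dleu2, Myh7b and Xlr3b had adjusted p of 0.00972, 0.00118 and 0.00176. Fgfr3, a fibroblast growth factor receptor, averaged 13.4 ± 0.978 CPM in the knockouts and 10.9 ± 0.585 CPM in the controls. Hemk1, a methyltransferase of translation termination, averaged 18.5 ± 0.177 CPM in the knockouts and 16 ± 0.358 CPM in the controls. Fam131b averaged 2.82 ± 0.331 CPM in the knockouts and 1.9 ± 0.249 CPM in the controls.

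A set of neighbouring genes on chromosome 17, chosen after the values were seen, lay higher together. Dynlt1b, 1 of several tandem copies of a dynein light chain gene (6697511 to 6703695, plus strand, GRCm39), averaged 12.8 ± 1.36 CPM in the knockouts and 10.1 ± 0.667 CPM in the controls. ENSMUSG00000123070.1 (6705317 to 6707899, plus strand) had 12.3, 12.4, 11.1 and 12.2 CPM in the knockouts, against 9.10, 8.83, 9.32 and 9.73 CPM in the controls. ENSMUSG00000121395.2 (6705923 to 6757893, minus strand) had 46.8, 42.2, 44.2 and 39.8 CPM in the knockouts, against 30.9, 36.3, 36.4 and 34.9 CPM in the controls. Neither of the last pair overlapped between groups, and both had an adjusted p of 0.0686. Tmem181b-ps, which lies inside the span of ENSMUSG00000121395.2, had a log2 change of 0.38 ± 0.14, against 0.34 ± 0.08 for Dynlt1b, 0.37 ± 0.07 for ENSMUSG00000123070.1 and 0.32 ± 0.06 for ENSMUSG00000121395.2 (SE). The other copies did not share this: the log2 changes of Dynlt1a, Dynlt1c and Dynlt1f were -0.13 ± 0.08, 0.12 ± 0.11 and -0.03 ± 0.05 (SE). Strands were not separated in the counting, and the genes overlap or are copies, so their reads cannot be assigned with certainty. In the PAS line the 4 genes had log2 changes of 0.12, 0.07, 0.10 and 0.11, in the order Dynlt1b, ENSMUSG00000123070.1, ENSMUSG00000121395.2 and Tmem181b-ps.

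Among single genes that were lower and not called, a further 4 with no overlap between groups are given, chosen after their values were seen. Tmem108 averaged 75.8 ± 1.75 CPM in the knockouts and 85.1 ± 3.22 CPM in the controls (SD, n = 4 each; adjusted p = 0.194). Ucp2, a mitochondrial carrier, averaged 105 ± 3.02 CPM in the knockouts and 117 ± 4.99 CPM in the controls (adjusted p = 0.354). Creb3l1, a transcription factor activated at the endoplasmic reticulum, averaged 25.7 ± 2.17 CPM in the knockouts and 30.5 ± 1.31 CPM in the controls (adjusted p = 0.383). Tgfbr3, the betaglycan coreceptor, averaged 172 ± 11.7 CPM in the knockouts and 196 ± 5.91 CPM in the controls (adjusted p = 0.397).

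Knockout 3 stood apart from the other libraries. On the first principal component, which held 31.8% of the variance, it scored 20.5, against -15.97 to 5.82 for the other 7 libraries, and it had the lowest library median in 25 of the 50 lists. Citric acid cycle genes lay at -0.124 in it, calcium handling genes at -0.114 and DNA replication genes at -0.092 (log2 deviation). A few genes were far higher in it. ENSMUSG00000119584.1, on chromosome 17, had 6370, 6330, 32900 and 6420 CPM in the knockouts, against 2460, 2180, 3790 and 3870 CPM in the controls, and took 3.24% of all counts in knockout 3. Lars2, the mitochondrial leucine synthetase, had 733, 1100, 3690 and 767 CPM in the knockouts, against 442, 371, 571 and 608 CPM in the controls. For both genes every knockout was above every control, so the difference was not confined to knockout 3, which was far above the rest. ENSMUSG00000119584.1 took 0.638%, 0.639% and 0.643% of counts in knockouts 1, 2 and 4, against 0.216% to 0.387% in the controls. Lars2 lay far above the median level of the mitochondrial synthetases, 29.1 CPM. Whether its reads came from Lars2 transcripts, and whether RNA preparation differed between the groups, was not tested. The mitochondrial ribosomal RNAs were far higher in knockout 3 than in any other library: mt-Rnr2 had 899, 706, 1990 and 813 CPM in the knockouts, against 714, 850, 730 and 794 CPM in the controls. mt-Rnr1 had 395, 282, 973 and 318 CPM in the knockouts, against 293, 335, 263 and 273 CPM in the controls. For both RNAs knockout 1 also lay above every control, by much less, and knockouts 2 and 4 did not. Gm15564 had 22.8, 47.6, 165 and 24.4 CPM in the knockouts, against 16.7, 10.1, 20.9 and 24.4 CPM in the controls. In knockouts 3 and 4, markers of choroid plexus, a brain epithelium, were high as well: Ttr had 13.8, 17.5, 104 and 153 CPM in the knockouts, against 35.1, 27.2, 11.2 and 26.6 CPM in the controls. The 11 choroid plexus markers tested had a median deviation of -0.400, -0.037, 0.918 and 0.643 (log2) in knockouts 1 to 4, against 0.003, -0.089, -0.404 and -0.002 in controls 1 to 4. Erythroid markers were also highest in knockout 3. The part of these libraries in the small shifts was not tested beyond leaving them out: without knockout 3, 14 genes were called, and without knockouts 3 and 4, 12.

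**Figure D5:**
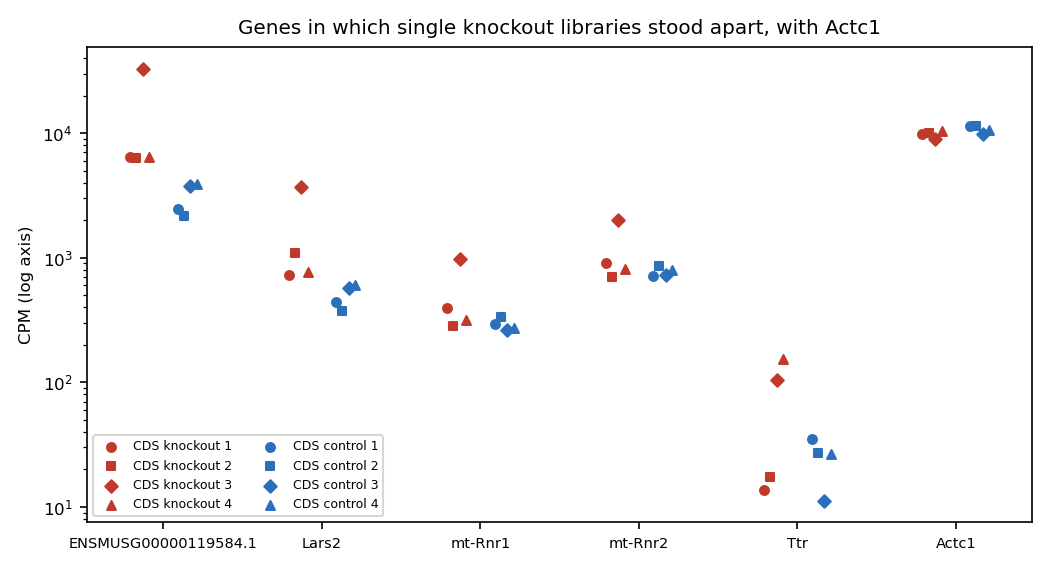
CPM in each library (vertical axis, log scale) of 5 genes in which single knockout libraries stood apart, and of Actc1 for reference, with knockouts in red left of controls in blue and a marker shape per replicate number. Knockout 3 reaches 32900 CPM for ENSMUSG00000119584.1 and 3690 CPM for Lars2, and Ttr is high in knockouts 3 and 4.

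The remaining lists showed no called member. Their median log2 changes are given with all 8 libraries and then without knockout 3. They were -0.009 and 0.001 for the spliceosome, -0.007 and -0.008 for the proteasome, 0.002 and 0.016 for ribosome assembly, -0.007 and 0.014 for DNA replication, and -0.016 and 0.009 for mitosis. For chaperonins and cytosolic heat shock proteins they were -0.020 and -0.003, for chaperones of the endoplasmic reticulum -0.030 and -0.006, for mitochondrial chaperones and proteases -0.037 and -0.004, for antioxidant genes -0.022 and -0.014, and for autophagy and lysosome -0.034 and -0.036. Fatty acid oxidation stood at -0.024 and 0.008, cholesterol synthesis at -0.036 and -0.041, the interferon response at -0.009 and -0.035, immediate early genes at 0.072 and 0.071, and hosts of small nucleolar RNAs at 0.067 and 0.061. Leaving out knockout 3 thus turned the sign for the spliceosome, DNA replication, mitosis and fatty acid oxidation. Immediate early genes, which respond within minutes to a stimulus, lay at -0.132, 0.138, 0.056 and 0.073 (log2 deviation) in knockouts 1 to 4, against -0.183, -0.095, 0.126 and 0.081 in controls 1 to 4, with full overlap. Replication-dependent histones, which lack a poly(A) tail, made up between 0.0043% and 0.0051% of the counts of each of the 8 libraries. Of 67 such genes 15 passed the count filter, at a median level of 0.706 CPM. Genes this near the cutoff can pass it through 1 group alone, so their direction is no result. Their median log2 change was 0.25, and 0.10 without knockout 3. Among markers of other cells, with and then without knockout 3, the medians were -0.097 and -0.479 for erythroid cells, of which all 14 were negative without it, and -0.048 and 0.058 for macrophages. The erythroid list lay at -0.508, -0.051, 0.744 and -0.556 (log2 deviation) in knockouts 1 to 4, against 0.185, 0.607, -0.366 and -0.178 in controls 1 to 4. Its groups overlapped, and knockout 2 lay above controls 3 and 4. The medians were -0.044 and -0.072 for atrium, -0.008 and 0.008 for outflow tract, -0.019 and 0.011 for smooth muscle, 0.087 and 0.071 for neurons, -0.067 and -0.001 for hepatocytes, and -0.146 and -0.131 for skeletal muscle.

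Set beside the PAS line, in which 2 of 20269 genes were called (0.00987%), the changes of the CDS line are given with those of the same genes in that line. The PAS line has its own controls and separate libraries. Log2 changes in the CDS line and the PAS line were -0.46 and -0.50 for Cars, -0.39 and -0.40 for Pycr1, -0.39 and -0.41 for Bcat1, -0.28 and -0.24 for Aars, and -0.21 and -0.36 for Asns. They were -0.33 and -0.16 for Iars, -0.45 and -0.15 for Aldh1l2, -0.14 and 0.08 for Cdh5, and -0.17 and -0.10 for Igf2. A test of the difference between the lines called 1 gene of 20269 (0.00493%), Atf4 itself, so none of these differences passed. The unadjusted p of the difference was 0.00444 for Iars, 0.00576 for Aldh1l2 and 0.00579 for Cdh5, each with an adjusted p of 0.995.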

How the data were processed

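The deposited files hold raw read counts per gene, counted by the authors as read pairs over the exons of GENCODE 37 (GRCm39) by featureCounts 2.1.1, per the file headers, and no strand option was set. Tools listed in the submitters' processing notes are fastp, FastQC, HISAT2 2.2.1, STAR 2.7.11b and DESeq2. Both GRCm38 and GRCm39 are named there, with no role or order. All 78317 genes of the table entered the library totals. The library sizes used for CPM and the fit were recomputed from the 19345 genes kept. Names came by identifier from GENCODE 21 and matched 51536 genes, which hold 98.64% of the counts.

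The 8 CDS libraries were fitted alone with edgeR 4.0.16 in R 4.3.3: filterByExpr with a minimum count of 10, TMM scaling and the robust quasi-likelihood test with 6 residual degrees of freedom, two-sided, with Benjamini-Hochberg adjustment over the 19345 genes kept. The biological coefficient of variation was 6.5%. CPM are scaled by TMM, and deviations are of log2 CPM with a prior count of 2. Library totals of 30376847 to 46472141 counts set the precision. The test of the difference between lines used all 15 libraries and kept 20269 genes. Alternatives were DESeq2 1.42.0, limma 3.58.1 (voom, with and without quality weights), 1 surrogate variable from sva 3.50.0, other scaling, filters and dispersions, a replicate block, and left-out libraries. The share of negative changes among the most abundant genes was added after seeing the data.

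Genes were named by rule: Atf4 and tested genes within 250 kb, every called gene, the 10 rises and 10 falls of smallest p at 1 CPM or more without overlap, and from each of 50 lists the most abundant member and up to 3 of smallest p. Of these, 1 gene is not reported here. A further 29 genes were chosen after their values were seen. Members and lists were chosen with earlier results of these data known, and the histone list was corrected after it had matched a gene that is no histone. The check for pairing correlated the deviations of same-numbered libraries, which gave 0.147, -0.0657, 0.126 and 0.0204. These values do not settle whether the numbers mark pairs, and the labels do not say, so the numbers were not taken as pairs. The batch label is 1 for all libraries.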

Additional observations from a re-analysis of the deposited data

Results flagged for a closer look

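In 12 of 192 groups of 4 libraries, 1 library lay so far from the other 3 that its gap passed Dixon's 95% critical value, and chance gives about 5% of groups. The genes checked were those given in the text. ENSMUSG00000119584.1, mt-Rnr1 and mt-Rnr2 were among those chosen after their values were seen, so the count cannot be weighed against that 5%. In 4 of the 12 groups knockout 3 was far above the other knockouts: ENSMUSG00000119584.1 had 32900 CPM against 6330 to 6420 CPM, Lars2 had 3690 CPM against 733 to 1100 CPM, mt-Rnr2 had 1990 CPM against 706 to 899 CPM, and mt-Rnr1 had 973 CPM against 282 to 395 CPM. Knockout 3 was also below the others for Trdn, with 107 CPM against 117 to 118 CPM, and for ENSMUSG00000123070.1, with 11.1 CPM against 12.2 to 12.4 CPM.

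Knockout 2 was above the other knockouts for 1810010H24Rik, with 3.50 CPM against 2.92 to 2.98 CPM, and for Foxp1, with 97.9 CPM against 92.4 to 92.8 CPM. Knockout 4 was above the others for Rps19bp1, with 10.2 CPM against 8.48 to 8.76 CPM. Among the controls, control 1 had 71.6 CPM of Mars against 69.5 to 69.8 CPM, control 3 had 260 CPM of Eif3c against 265 to 266 CPM, and control 3 had 110 CPM of Ucp2 against 119 to 121 CPM.

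The change of Atf4 differed between the lines by a test of the difference itself. Its log2 change in CDS knockouts minus that in PAS knockouts was -2.92 ± 0.08 (SE; edgeR's quasi-likelihood test, adjusted p = 3.88e-17), where the CDS change was -1.36 and the PAS change 1.56.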

How the results depend on the processing

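The count of 12 called genes was 26 with DESeq2's test (9 higher, 17 lower) and 64 with no filter on low counts (33 higher, 31 lower). Leaving out 1 library at a time gave 8 to 14 called genes, 2 to 3 higher and 6 to 11 lower, and the 6 came without knockout 2. The replicate block, fitted although nothing in the labels says that the numbers pair the libraries, called 5 genes higher and 13 lower. Mthfd2, Aldh1l2, Eda2r, Cdkn1a and Msx1 were among those it added. The 12 genes were all called by DESeq2, and between 8 and 12 of them in the other settings. The share of negative changes in the most abundant group of coding genes, 65.2%, was 56.9% with 1 surrogate variable, 62.7% with no filter, 62.6% without knockouts 3 and 4, and between 58.6% and 69.1% without 1 library. The log2 change of Ttr turned to -0.67 without knockouts 3 and 4. The cause was not tested for any of these. Of 50 list medians, 21 kept their sign in every setting that gave a value, 18 had the other sign with 1 surrogate variable and 8 without knockout 3. Genes under about 10 CPM varied most: the median standard error was 0.083 over all genes and 0.047 at 10 CPM or more. The protocols disagree on tissue, kit and instrument, and control genotypes are not given.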
